A study of Mus musculus with 278 samples.

Results

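Solute carriers (Slc genes) were followed cell by cell in the epithelium of the mouse mammary gland. Of 396 genes whose symbol starts with Slc, 155 are described here, chosen by detection: a read had to be seen in at least 20 of the 231 cells that held 50000 reads. Of the others, 38 had no read in any such cell and 203 were seen in fewer than 20. All cells came from FVB/NJ mice, were captured one by one on the Fluidigm C1 microfluidic system, and fell into 3 groups. There were 43 cells from adult glands sorted as luminal, 112 cells from adult glands sorted as basal, and 123 cells of the total epithelium of pregnant glands, taken at mid-pregnancy and not sorted by lineage. The labels name no agent, no altered allele and no adult age, and although the study drew each group from more than 1 mouse, they tie no cell to an animal. As each library was 1 cell, a group stood for 1 sample without replicates, and nothing was tested. All differences below are descriptions of these cells, and intervals cover counting error only.

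Solute carriers move nutrients, ions, vitamins, metabolites and signalling molecules across the plasma membrane or the membranes of organelles, mostly as facilitators or coupled to an ion gradient. In the mammary gland, luminal cells take up glucose, amino acids, phosphate, zinc, iodide and carnitine from the blood and make milk from them, while basal (myoepithelial) cells surround the ducts and alveoli and contract. Because the name is given by family, the set also held carriers of mitochondria and the Golgi apparatus and 4 proteins that are not transporters themselves.

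Retained cells had to pass the minimums of the study, which left 39 adult luminal, 85 adult basal and 96 pregnancy cells. Median assigned reads were 638284, 378525 and 215213 per retained cell, so for counts of genes and shares of cells every cell was thinned to 50000 reads. The labels were checked against 10 basal and 10 luminal markers. The median adult luminal cell had reads of 9 luminal and 0 basal markers, and the median adult basal cell had reads of 9 basal and 3 luminal markers. Adult luminal cell 35 went against its label, with 10 basal and 7 luminal markers. Cells with 3 or more markers of an endothelial, immune, fibroblast, adipocyte or erythroid type numbered 6 among adult luminal, 1 among adult basal and 25 among pregnancy cells. Their part in the results was not tested, and values without these cells and without adult luminal cell 35 are given where they matter. Fibroblast markers summed to 1782 CPM (read counts scaled to the total of all kept genes) in adult luminal cells, with 0 of the 6 markers unseen, and to 48.3 CPM in adult basal cells, where 1 of the 6 was unseen. In the luminal-marked and basal-marked pregnancy cells defined next they summed to 1371 and 2205 CPM.

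Pregnancy cells were divided by the same markers. The 41 cells with more luminal than basal markers are called luminal-marked, the 49 with more basal markers basal-marked, and 6 ties were left out. The division is a range and not a cell type, since 16 of the cells differed by only 1 marker. Values for the 28 luminal-marked and 32 basal-marked cells that differed by 4 or more are therefore given beside the main ones for some genes. A gene without such a value was not necessarily stable. The median luminal-marked cell had 9 luminal and 2 basal markers, and the median basal-marked cell had 9 basal and 5 luminal markers. Milk protein genes took 29.6% of the reads of luminal-marked and 8.20% of the reads of basal-marked cells, against 1.25% in adult luminal cells. In the basal-marked cells that differed by 4 or more markers they took 0.514%. Stage and sort cannot be told apart in the pregnancy comparisons, because no pregnancy cell was sorted by lineage. Pregnancy cells with title numbers up to 55 and above 55 were also kept apart. The labels name no batch there, and the division came from earlier results of these data.

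Genes just inside the threshold were Slc22a15 and Slc35d2, each with reads in 20 cells, and Slc39a4, Slc39a8, Slc46a1 and Slc46a3, each in 21. Just outside lay Slc25a32, Slc25a38, Slc2a8, Slc37a1 and Slc4a11, each with reads in 19 cells. The rule used all cells of all groups together, so presence in the set does not show that a gene was seen in every group. Pregnancy gave 102 of the 231 cells, and a gene could pass mainly on the group where it was high. Slc6a14, with reads in 31 cells, passed mostly on pregnancy cells. The background of all genes used below passed a looser filter, given with the processing, so members and all genes were not chosen alike.

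By the solute carried, the 155 genes fell into 15 classes. The largest were carriers of amino acids, peptides and related small molecules (24 genes, with creatine, taurine and thyroid hormone carriers among them), the mitochondrial Slc25 family (24), carriers of nucleotide sugars and sugar phosphates with their Slc35 relatives (21), and carriers of zinc, iron, copper and manganese (20). All members together took 1.13% of the reads of adult luminal cells, 1.02% in adult basal, 0.827% in luminal-marked and 1.17% in basal-marked pregnancy cells. With milk genes left out of the totals, the shares of the pregnancy cells were 1.18% and 1.28%. Amino acid carriers held 23.7% of the solute carrier reads of adult luminal cells, 30.5% of those of adult basal cells, 26.3% in luminal-marked and 36.6% in basal-marked pregnancy cells. Mitochondrial carriers held 32.2%, 30.5%, 21.4% and 22.5% in the same order. This class is the whole Slc25 family, here and below, and so counts the peroxisomal carrier Slc25a17 as well. Phosphate and sulphate carriers, a class of only 4 genes, held 2.10% in adult luminal, 1.46% in adult basal, 8.55% in luminal-marked and 3.04% in basal-marked cells. Single genes decided several of these shares, as the class levels and the genes named below show.

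**Figure D1:**
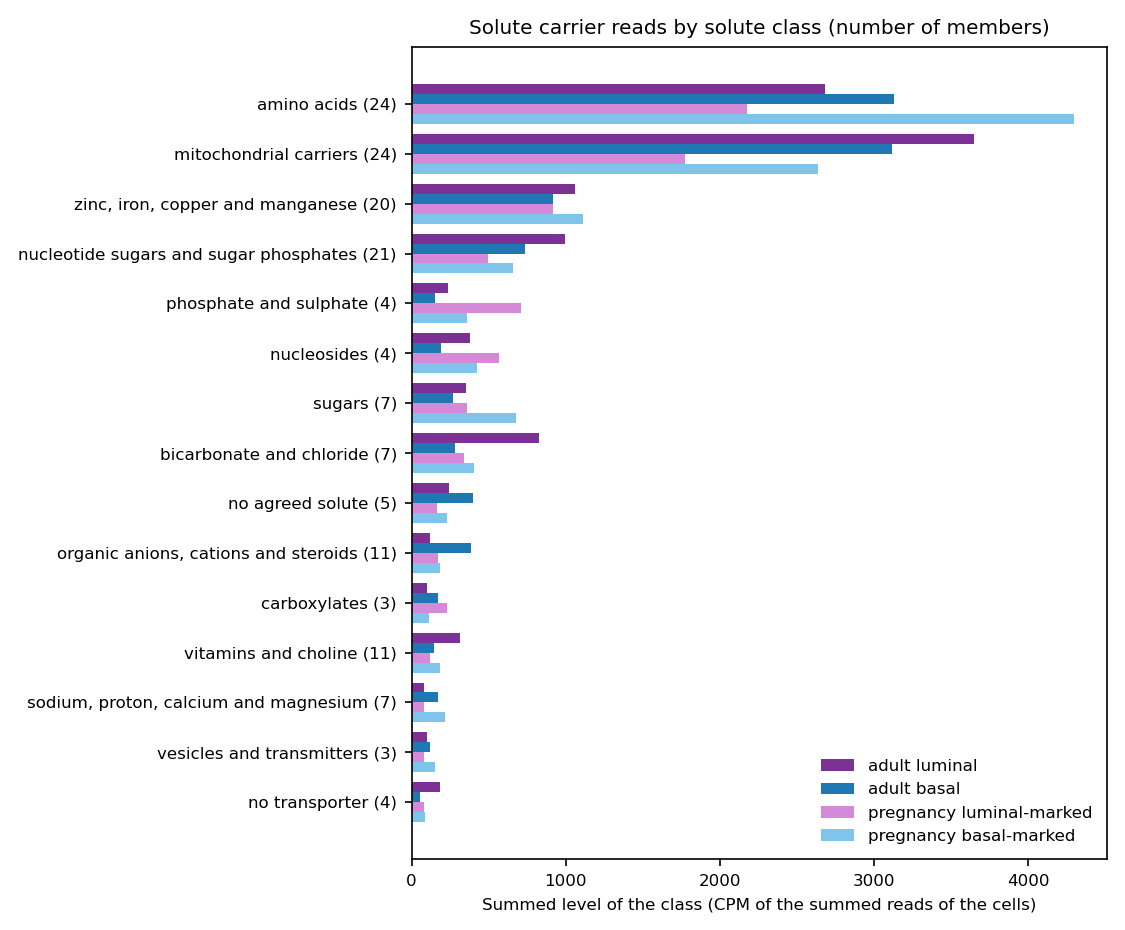
Summed level of each solute class (horizontal axis, CPM of the summed reads of all cells of a set) in adult luminal, adult basal, pregnancy luminal-marked and pregnancy basal-marked cells, with the number of genes of each class in brackets. Amino acid and mitochondrial carriers were the highest classes in all 4 sets, with amino acid carriers at 4295 CPM in basal-marked cells.

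Promoter windows from RefSeq (GRCm38.p6) matched 119 of the 155 genes. The windows of 2 genes are shown as examples. An adult sort had no read of either while luminal-marked pregnancy cells did, which also held for other members, Slc5a5 among them. A window of Slco2a1 was drawn up too and is not shown, because it lies inside the annotated extent of the gene. Slc28a3 (Entrez gene 114304) spans chr13:58553307-58610877 and Slc6a14 (56774) spans chrX:21714900-21742358. Capitals mark the motif TGANTCA, a form of the AP-1 motif, found at 1 place in the Slc6a14 window. The motif lay 82 bases before the start, and no capitals in the Slc28a3 window means that none of the 3 motifs searched was in it. The 250 bases before the start of Slc28a3 (minus strand, chr13:58610878-58611127) and of Slc6a14 (plus strand, chrX:21714650-21714899) read 5′ to 3′:
Slc28a3: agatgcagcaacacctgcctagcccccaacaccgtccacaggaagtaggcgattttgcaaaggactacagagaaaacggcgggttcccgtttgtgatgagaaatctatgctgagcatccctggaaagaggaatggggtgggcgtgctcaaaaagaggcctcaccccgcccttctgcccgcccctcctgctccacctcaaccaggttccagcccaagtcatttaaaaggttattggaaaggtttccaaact
Slc6a14: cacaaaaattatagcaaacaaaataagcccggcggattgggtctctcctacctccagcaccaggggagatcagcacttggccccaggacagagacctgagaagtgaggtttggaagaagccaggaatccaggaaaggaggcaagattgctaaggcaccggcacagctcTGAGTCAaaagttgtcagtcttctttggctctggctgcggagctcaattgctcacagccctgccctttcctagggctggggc
Over all 27025 genes with a window, both strands searched, 7.82% held TGANTCA in at least 1 window, against 6.72% of the 119 members. The motif TTCNNNGAA, bound by STAT factors, was in 8.13% of all genes and 10.1% of members, and TATAAA was in 14.3% and 7.56%. A match is only a match of letters, and each motif was counted on its own, so overlapping matches count for both.

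The median cell had reads of 35 of the 155 solute carriers in adult luminal cells (range 16 to 63), 22 in adult basal cells (5 to 48), 45 in luminal-marked (23 to 73) and 36 in basal-marked pregnancy cells (17 to 72), all at 50000 reads. The cells of the groups overlapped widely. Unthinned, the medians were 52, 31, 59 and 46. The number of all genes found moved with these counts, with medians of 3465, 2263, 3352 and 3299 genes per cell, so solute carriers made up 1.03%, 0.988%, 1.30% and 1.11% of the genes found. Among pregnancy cells with title numbers up to 55 the median was 44 solute carriers of 3944 genes, or 1.18% of the genes found. Above 55 it was 33 of 2809 genes, or 1.25%.

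Adult basal and adult luminal cells differed in single carriers of nucleosides, cationic amino acids, vitamins, creatine, taurine and prostaglandins. Slc28a3, Slc7a2, Slc38a1 and Slc5a6 were higher in luminal cells, and Slco2a1, Slc6a8 and Slc6a6 were higher in basal cells. Of 153 members with enough reads for a ratio, 33 were 2-fold or more higher in basal cells, where 24% of all genes were, and 61 were 2-fold or more lower, where 36.1% of all genes were. The median log2 ratio, basal over luminal, was -0.49 over the members and -0.33 over all genes. The set thus lay near the background of all genes in both directions, though members and all genes passed different filters. Another scaling (TMM) moved every log2 ratio of this comparison by 0.30.

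The nucleoside carrier Slc28a3, which couples uptake of purine and pyrimidine nucleosides to sodium, had no read in any of the 85 adult basal cells, which allows a share of cells of up to 3.53% by the floor of 3 counts (upper exact binomial limit 4.25%). In adult luminal cells it reached 257 CPM (95% Poisson interval 250.6 to 263.3) and was found in 13 of 39 cells (33.3%, 95% exact binomial interval 19.1 to 50.2%). The lowest and the median luminal cell were at 0 and the highest at 3197 CPM, so the gene was high in a minority of luminal cells. Against a floor of 3 counts over the basal group the log2 ratio was at most -11.58. The equilibrative nucleoside carrier Slc29a1 went the other way, with 98.9 CPM in basal and 43.9 CPM in luminal cells (log2 ratio 1.17, interval 1.07 to 1.27).

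Among amino acid carriers, 7 of 23 were 2-fold or more lower in basal cells and 6 were higher, with a median log2 ratio of 0.21. Slc7a2 (gene 11988, chr8:40862341-40922070), a carrier of arginine, lysine and ornithine, had 518 CPM in luminal and 25.3 CPM in basal cells (log2 ratio -4.35, interval -4.45 to -4.26). It was found in 31 of 39 luminal cells (79.5%, 63.5 to 90.7%) and 13 of 85 basal cells (15.3%, 8.40 to 24.7%), with a median of 230 CPM per luminal cell and 0 per basal cell. The highest basal cell, at 1247 CPM, lay inside the luminal range of 0 to 2641 CPM. Its close relative Slc7a1, with the same substrates, was near level, with 29.6 CPM in luminal and 31.8 CPM in basal cells. The glutamine carrier Slc38a1 was lower in basal cells (log2 ratio -5.50), and so was the lysosomal arginine carrier and sensor Slc38a9 (-2.67). Slc38a2, a related carrier of small neutral amino acids, was slightly higher in them (0.53).

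Slc6a8 and Slc6a6, carriers of creatine and taurine, were higher in basal cells. The creatine carrier Slc6a8 (gene 102857, chrX:73673133-73682502) had 101 CPM in basal and 10.9 CPM in luminal cells (log2 ratio 3.22, interval 3.04 to 3.40). It was found in 24 of 85 basal and 3 of 39 luminal cells, and 1 luminal cell held 79.2% of the luminal reads, and with the cell with the most reads left out of each group the log2 ratio was 5.14. Slc6a6, which carries taurine, had 237 CPM and 65.9 CPM (log2 ratio 1.84), and was found in 69.4% of basal and 30.8% of luminal cells. Of its luminal reads, 46.6% came from 1 cell, and the log2 ratio was 3.44 without the cells marked as other types and adult luminal cell 35.

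Organic anion carriers held the gene with the highest ratio among those named. Slco2a1 (gene 24059, chr9:103007061-103096002), the prostaglandin transporter, had 270.3 CPM in basal and 15.0 CPM in luminal cells (log2 ratio 4.18, interval 4.02 to 4.33). It was found in 53 of 85 basal cells (62.4%, 51.2 to 72.6%) and 11 of 39 luminal cells (28.2%, 15.0 to 44.9%). Basal cells ranged from 0 to 1774 CPM with a median of 77.2 CPM, and luminal cells from 0 to 144 CPM with a median of 0, so 0 was shared by both groups and the upper range was basal. The related Slco3a1 had a log2 ratio of 2.02, which was 7.58 (interval 6.53 to 8.89, with 7 luminal reads left) without the cells marked as other types and adult luminal cell 35. Slc27a1, which takes up long-chain fatty acids, was lower in basal cells (6.89 against 24.5 CPM, log2 ratio -1.83).

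Vitamin carriers had the lowest class median (log2 ratio -2.24 over 11 genes), with 6 genes lower in basal cells and 2 higher. Slc5a6, which carries biotin and pantothenate, had 91.1 CPM in luminal and 9.21 CPM in basal cells (log2 ratio -3.31) and was found in 51.3% and 7.06% of them. Its gene overlaps Atraid, so reads of the 2 could not be told apart if they were counted without strand. Of 24 mitochondrial carriers, 12 were lower in basal cells and 3 higher, with a median of -0.94. The dicarboxylate carrier Slc25a10 (64.4 against 1.09 CPM, log2 ratio -5.88) and the outer-membrane protein Slc25a46 (-2.99) were lower in basal cells. The 2 aspartate and glutamate exchangers went opposite ways, Slc25a12 at -1.24 (-0.94 with TMM) and Slc25a13 at 1.50. The ADP and ATP exchangers did so too, with Slc25a4 at 1.17 and Slc25a5 at -0.48.

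Smaller classes gave single genes. The Slc35 relative Slc35f3 was found in 38.5% of luminal cells and 1 of 85 basal cells (log2 ratio -9.03, interval -10.91 to -7.67, with only 4 basal reads). The monocarboxylate carrier Slc16a1, which exports lactate, was higher in basal cells (156 against 63.4 CPM, log2 ratio 1.30), as were the magnesium carrier Slc41a1 (1.21) and Slc66a2 (1.36), whose solute is not agreed. The chloride cotransporter Slc12a2 was 4.22-fold lower in basal cells (153 against 644 CPM), and the sugar carrier Slc50a1 was 4.08-fold lower. With the mean of per-cell CPM in place of sums, Slc25a13 (0.87), Slc66a2 (0.71), Slc16a1 (0.83) and Slc41a1 (0.93) were under 2-fold.

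**Figure D2:**
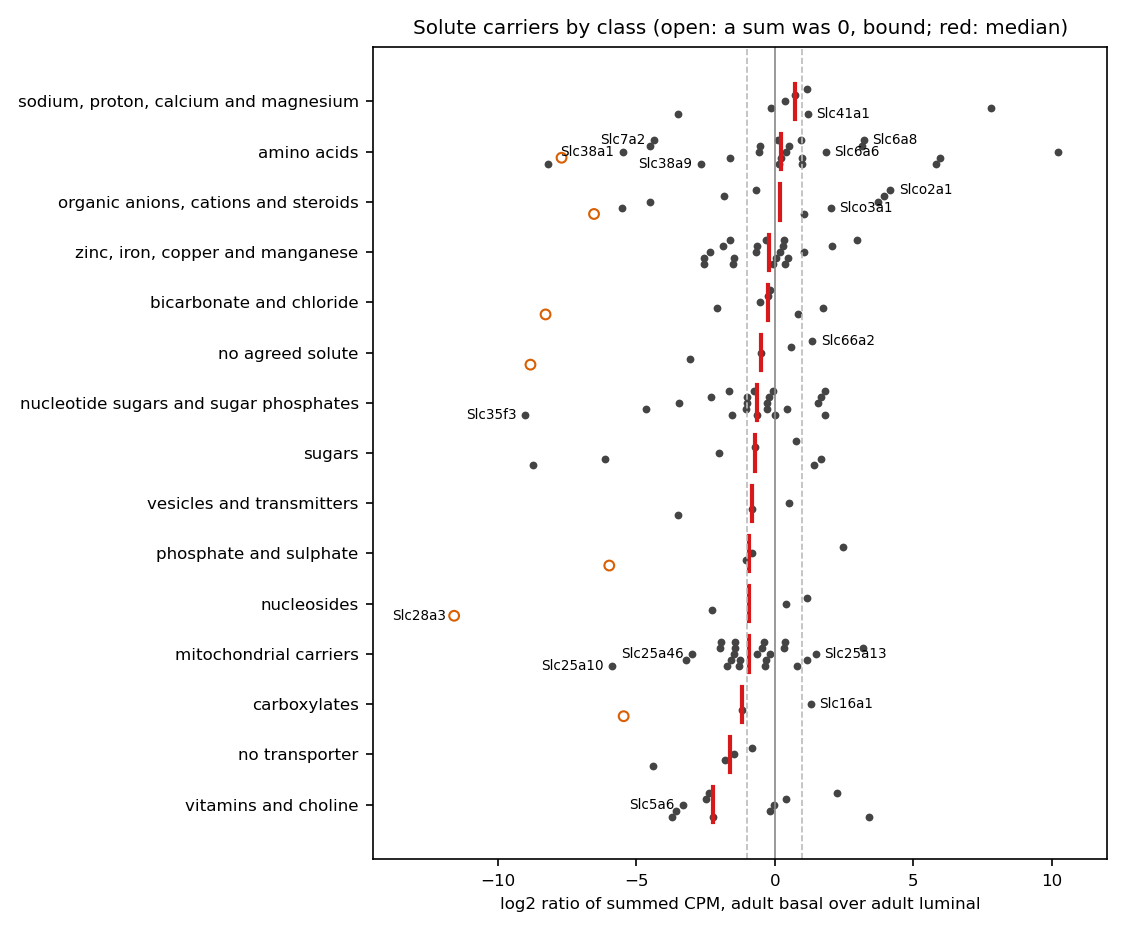
Log2 ratio of summed CPM, adult basal over adult luminal (horizontal axis), for each of the 153 solute carriers with a ratio, by class (vertical axis, ordered by class median, red bars). Dashed lines mark 2-fold, open circles are bounds where 1 sum was 0, and labels are the genes named by rule, from Slc28a3 at -11.58 to Slco2a1 at 4.18.

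Luminal-marked pregnancy cells had more reads of Slc6a14, Slc11a2, Slc16a12, Slc5a8 and Slc20a1 than adult luminal cells, and fewer of Slc7a2, Slc5a6, Slc35f3 and Slc38a1. Higher and lower genes stood side by side in the amino acid class (5 higher and 7 lower of 24), the metal class (3 and 3 of 20) and the phosphate class (2 and 1 of 4). Of 3 genes in the carboxylate class 2 were higher and none lower. Of 155 members, 27 were 2-fold or more higher, where 18.4% of all genes were, and 50 were 2-fold or more lower, where 40.6% of all genes were. The median log2 ratio was -0.36 over the members and -0.69 over all genes. With the 28 cells that differed by 4 or more markers, 64 of the 77 members 2-fold or more apart stayed so in the same direction, and 1 had the opposite direction. Scaling bore on the split. TMM moved every log2 ratio by 0.66 and gave 49 higher and 26 lower, and leaving the milk genes out of the totals moved them by 0.49 and gave 42 higher and 29 lower. Such a shift applies to all genes alike, and shares of all genes were not counted under these scalings. The pregnancy comparisons with adult cells use the same adult cells as the comparison above. The mix of luminal cells also differed. The median adult luminal cell had 6 mature-type and 4 progenitor-type markers, and the median luminal-marked pregnancy cell had 1 and 6. In the 8 adult cells called progenitor-marked below, Slc7a2 had 18.5 CPM and Slc20a1 379 CPM. Slc5a6, Slc6a14 and Slc16a12 had no read in them. What part this difference in mix had in the ratios was not tested.

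Slc6a14, which takes up neutral and cationic amino acids with sodium and chloride, had no read in the 39 adult luminal cells (the floor of 3 counts allows a share of up to 7.69%, and the upper exact binomial limit was 9.03%) and 1 read in the 85 adult basal cells. It had 92.0 CPM in luminal-marked pregnancy cells and was found in 14 of 41 (34.1%, 20.1 to 50.6%). The median cell was at 0 and the highest at 1828 CPM, and that 1 cell held 61.8% of the reads. Against the floor the log2 ratio was at least 9.55, and at least 8.19 without that cell. Slc7a2 had 28.9 CPM there against 518 CPM in adult luminal cells (log2 ratio -4.16, interval -4.32 to -4.01), was found in 5 of 41 cells, and was at 0 in the median cell. Of its pregnancy reads 61.9% came from 1 cell, and by mean of per-cell CPM the log2 ratio was -2.50. Slc38a1 was lower as well (log2 ratio -3.49, and -7.95 with 4 pregnancy reads left without the cells marked as other types). Slc38a2 was at 0.02, and at 0.68 with TMM.

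The sodium-dependent phosphate carrier Slc20a1 (gene 20515, chr2:129198773-129211615) had 651 CPM (636.8 to 665.9) in luminal-marked cells against 176 CPM in adult luminal cells (log2 ratio 1.89, interval 1.84 to 1.95). It was found in 33 of 41 (80.5%) and 22 of 39 cells (56.4%). The median cell was at 439 CPM in pregnancy and at 31.7 CPM in the adult, with highest cells at 2394 and 1118 CPM and cells at 0 in both. In pregnancy cells with title numbers up to 55 the log2 ratio was 2.05, and above 55 it was 1.80. Slc34a2, another phosphate carrier, of the apical membrane, had 28.0 against 5.29 CPM (log2 ratio 2.41, and 1.20 with thinned cells). Slc11a2, which imports iron and other divalent metals, had 58.3 CPM against 3.36 CPM (log2 ratio 4.12), in 51.2% against 12.8% of cells, and overlaps Gm5475. In the 8 adult progenitor-marked cells Slc34a2 had 30.2 CPM, with reads in 2 of the cells, and Slc11a2 had 4.56 CPM. Carriers of zinc went both ways. Slc39a4 (4.47, with 17 adult reads) and Slc39a7 (1.32, but 0.37 in cells with title numbers above 55) were higher, and Slc30a9 (-2.08), Slc39a1 (-1.60, or -0.95 with TMM) and Slc39a11 (-2.89) were lower. Slc30a4, which moves zinc out of the cytosol into vesicles, was at -0.31 and turned to 0.35 with TMM.

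Slc5a8 and Slc16a12, both in the carboxylate class, were higher in luminal-marked cells than in adult luminal cells. Slc16a12 was placed in that class by its family, and its own solute was not examined. Slc5a8, a sodium-coupled carrier of short-chain fatty acids and lactate, had 113 against 31.2 CPM (log2 ratio 1.85) and was found in 58.5% against 17.9% of cells. Slc16a12 had 54.8 against 3.69 CPM (3.89), with 52.1% of the pregnancy reads in 1 cell and 97.8% of the adult reads in 1 cell. Without the cell with the most reads in each group its log2 ratio was 8.32 (interval 6.46 to 11.37, with 2 adult reads left). Slc16a1 had 63.4 CPM in both, but its log2 ratio was 0.65 with TMM, 0.86 in cells with title numbers up to 55 and -0.80 above 55. The fatty acid carrier Slc27a1 had 52.0 against 24.5 CPM (1.09), but 0.80 in cells with title numbers up to 55.

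Carriers lower in luminal-marked cells included Slc5a6 (7.07 against 91.1 CPM, log2 ratio -3.69), Slc35f3 (-3.58), the aspartate and glutamate exchanger Slc25a12 (-2.54), the peroxisomal carrier Slc25a17 (126 against 623 CPM, -2.31) and Slc25a46 (-2.29). Under either other scaling each of these stayed more than 2-fold lower, and the smallest of these log2 ratios were -1.63 for Slc25a46 and -1.65 for Slc25a17. These ratios are against all adult luminal cells. In the 8 adult progenitor-marked cells Slc25a12 had no read, Slc25a17 had 207 CPM and Slc25a46 had 33.8 CPM. What part the mix of luminal cells had in these ratios was not tested. Of 24 mitochondrial carriers, 9 were 2-fold or more lower and 3 higher, with a median of -0.68. In the class of nucleotide sugar and sugar phosphate carriers with their Slc35 relatives, none of 21 genes was 2-fold or more higher. In that class 8 were lower, with a median of -0.81. Both medians lie close to the -0.69 of all genes.

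Against adult luminal cells, luminal-marked cells had more members lower than higher under the main scaling, but not under the other scalings. Basal-marked pregnancy cells, against adult basal cells, had more members higher than lower. Of 154 members, 56 were 2-fold or more higher, where 29.9% of all genes were, and 25 were lower, where 20.4% were. The median log2 ratio was 0.42 over the members and 0.08 over all genes. With the 32 cells that differed by 4 or more markers, 39 were higher and 40 lower. The share of all genes was not counted with those cells, so this shift has no background beside it. Of the 81 members 2-fold or more apart in the main comparison, 54 stayed so in the same direction with those cells. The direction was the opposite for 10, and 7 gave no value.

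Genes higher in basal-marked cells included carriers of myo-inositol, peptides and cationic amino acids. Slc5a3, which takes up myo-inositol, had 504 CPM against 173 CPM in adult basal cells (log2 ratio 1.54, interval 1.48 to 1.60). It was found in 36 of 49 (73.5%) and 39 of 85 cells (45.9%). Median cells were at 144 and 4.42 CPM, both groups reached down to 0, and the highest cells were at 5577 and 966 CPM. Its gene overlaps Mrps6. The log2 ratio was 1.55 with title numbers up to 55, 1.53 above 55, and 2.12 with the stricter marker gap. The peptide carrier Slc15a2 (195 against 51.6 CPM, log2 ratio 1.92), the oxoglutarate and malate exchanger Slc25a11 (54.7 against 12.0 CPM, 2.19, overlapping Rnf167), and the cationic amino acid carriers Slc7a2 (71.5 against 25.3 CPM, 1.50) and Slc7a1 (87.5 against 31.8 CPM, 1.46) were higher too. Slc7a1 was under 2-fold in cells with title numbers above 55 (0.63). Slc20a1 had 322 against 98.5 CPM (1.71), but the value rested on the cells with title numbers up to 55 (2.47), and was -0.27 in those above 55.

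Lower in basal-marked than in adult basal cells were Slc16a1 (46.7 against 156 CPM, log2 ratio -1.74), Slco2a1 (81.6 against 270.3 CPM, -1.73), Slco3a1 (-1.30) and Slc6a6 (106 against 237 CPM, -1.16). Slco2a1 was found in 23 of 49 basal-marked cells (46.9%) and at a median of 3.99 CPM, against 77.2 CPM in adult basal cells. Slco3a1 was under 2-fold in cells with title numbers up to 55 (-0.61) and with the stricter marker gap (-0.85). Slc6a6 was found in the same share of both, 69.4%, and its log2 ratio by mean of per-cell CPM was -0.92.

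**Figure D3:**
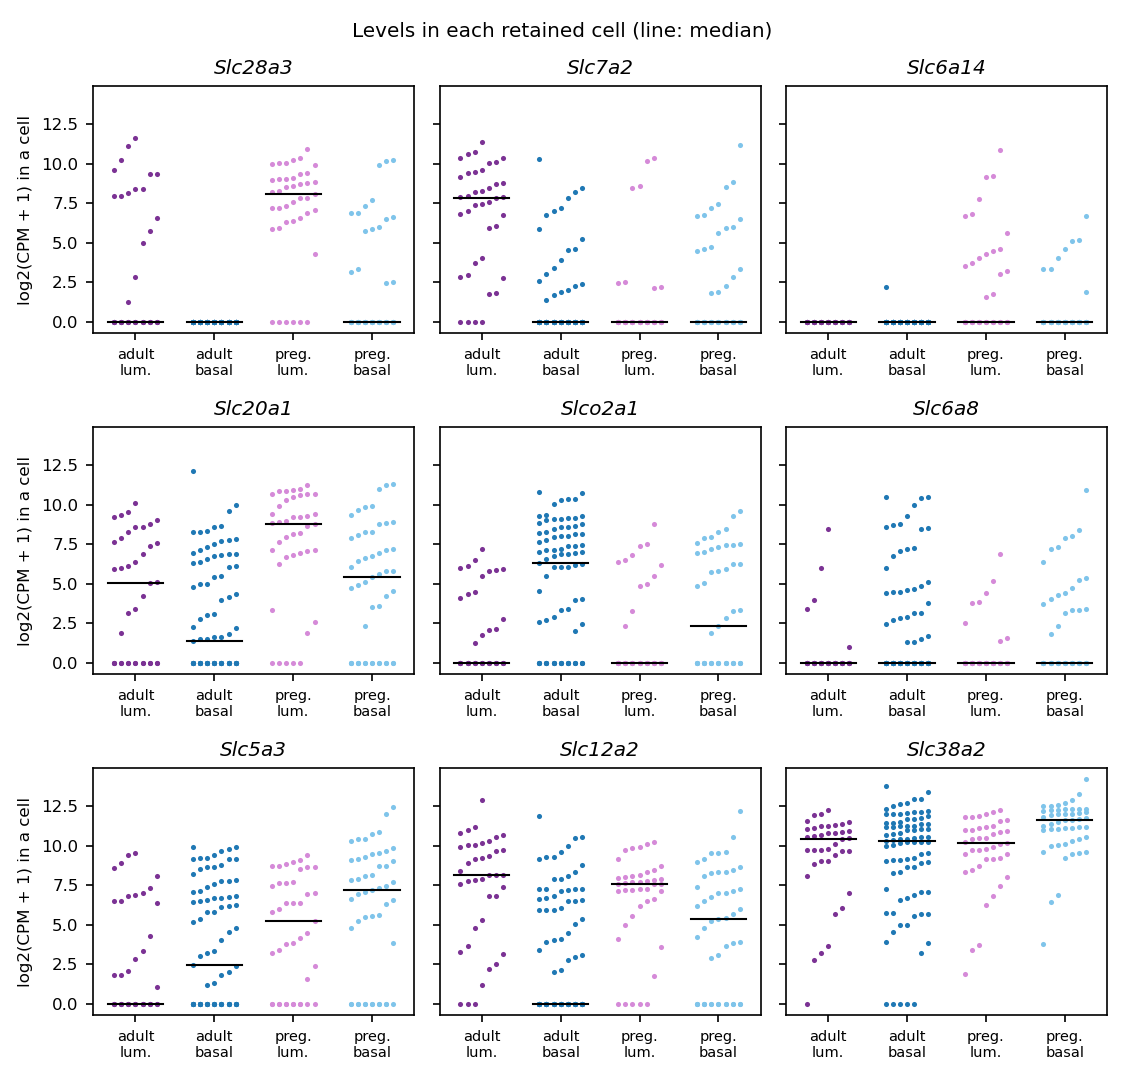
Level in each retained cell (vertical axis, log2 of CPM + 1, 1 point per cell, black line the median) of 9 solute carriers in adult luminal, adult basal, pregnancy luminal-marked and pregnancy basal-marked cells. Slc28a3 and Slc6a14 lie at or near 0 in every adult basal cell, Slc7a2 is high in most adult luminal cells, and Slc38a2 is high in all 4 sets.

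Luminal-marked and basal-marked pregnancy cells were compared with each other as well. Of 155 members, 36 were 2-fold or more higher in luminal-marked cells, where 17.3% of all genes were, and 44 were lower, where 34.5% were. The median log2 ratio was -0.23 over the members and -0.46 over all genes. TMM moved every log2 ratio by 0.44 and leaving out the milk genes by 0.38, the counts being 47 higher and 27 lower with TMM and 46 and 28 without milk genes. Shares of all genes were not counted under these scalings either.

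Slc28a3 was found in 35 of 41 luminal-marked cells (85.4%, 70.8 to 94.4%), at a median of 265 CPM and a highest of 1907 CPM, against 13 of 39 adult luminal cells. Its summed level of 404 CPM was 1.57-fold that of all adult luminal cells. In the 8 adult progenitor-marked cells Slc28a3 had 791 CPM, with 53.3% of the reads in 1 cell. In basal-marked cells it was found in 12 of 49 (24.5%, 13.3 to 38.9%) with 160 CPM, a log2 ratio of 1.33. The ratio turned on cells with few markers between the classes. In the 32 basal-marked cells with the stricter gap only 3 reads were seen, in 3 cells (0.639 CPM, interval 0.132 to 1.87), against 459 CPM in the 28 luminal-marked cells. The same held for other genes. Slc5a8 had a log2 ratio of 1.35, and at least 7.27 with the stricter gap, where no read was left in basal-marked cells. Slc16a12 was at 1.46, and with the stricter gap had 1 read in basal-marked cells (0.213 CPM, interval 0.00539 to 1.19) against 70.2 CPM. Slc6a14 was at 4.12, and at 6.58 with the stricter gap. The cells left out by the stricter gap carried most of the milk gene reads of the basal-marked class, and what part such cells have in these ratios was not tested.

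Slc20a1 (log2 ratio 1.02), Slc11a2 (1.48) and Slc35b2 (1.75), the Golgi carrier of the sulphate donor for glycans, were also higher in luminal-marked cells. Slc20a1 was under 2-fold in cells with title numbers up to 55 (0.42) and at 2.90 above 55. Higher in basal-marked cells were the creatine carrier Slc6a8 (64.4 against 4.80 CPM, log2 ratio -3.75), the zinc importer Slc39a10 (113 against 12.6 CPM, -3.16), the glutamate carrier Slc1a3 (-3.01), Slc35d1, which brings UDP-glucuronic acid and related sugars into the endoplasmic reticulum (142 against 21.5 CPM, -2.72), the choline carrier relative Slc44a2 (-2.06), Slc35f5 (-1.78), Slc25a4 (716 against 209.7 CPM, -1.77) and Slc7a1 (-1.61). Slc1a3 was found in 15 of 49 basal-marked and 7 of 85 adult basal cells, and had 1 read in the adult luminal cells. Both Slc25a4 (-0.94) and Slc7a1 (-0.87) were under 2-fold in cells with title numbers up to 55.

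**Figure D4:**
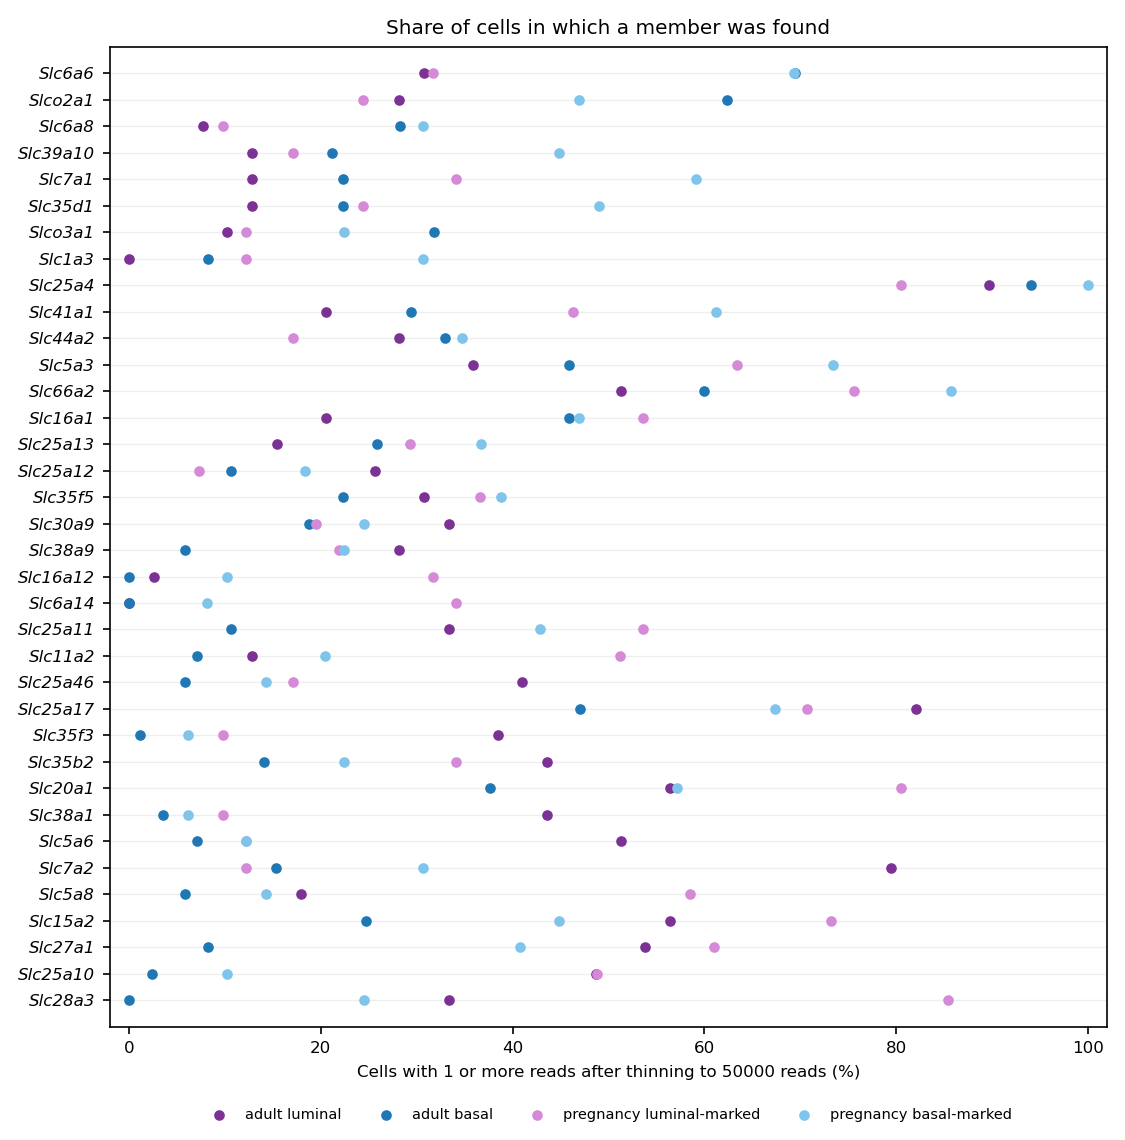
Share of cells with 1 or more reads after thinning to 50000 reads (horizontal axis, percent) for the solute carriers named by their ratios, with 1 point for each of the 4 sets; points with equal shares cover each other. Slc6a14 lies at 0 in both adult sorts and at 34.1% in luminal-marked cells, and Slc28a3 at 85.4% in luminal-marked cells.

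Genes known from mammary physiology were a further list, of 23 genes, of which 21 were members. Slc30a2 and Slc40a1 had reads in too few cells. The glucose carrier Slc2a1 had 12.5 CPM in adult luminal, 39.7 in adult basal, 31.2 in luminal-marked and 44.2 in basal-marked cells. In adult luminal cells it was found in 3 of 39 cells, with 74.8% of the reads in 1 cell. The iodide carrier Slc5a5 had 26.1 CPM in adult luminal and 18.6 CPM in luminal-marked cells, 1.61 CPM in basal-marked cells and no read in adult basal cells. The carnitine carrier Slc22a5 had 5.45 and 11.0 CPM in adult luminal and luminal-marked cells. Slc35a2, which supplies UDP-galactose to the Golgi, had 5.33 and 7.40 CPM in the same cells, and the mitochondrial citrate carrier Slc25a1 had 4.47 and 13.1 CPM. The glutamine carrier Slc1a5 had 32.9 CPM in adult basal cells and 3.69, 3.53 and 11.9 CPM in adult luminal, luminal-marked and basal-marked cells. The scaffold protein Slc9a3r1, which binds membrane carriers and is no carrier itself, had 80.9 and 41.0 CPM in adult luminal and luminal-marked cells and 23.4 and 13.6 CPM in adult basal and basal-marked cells. Slc20a2, a relative of Slc20a1 that overlaps Smim19, was highest in adult basal cells (25.8 CPM) and had 4.71 CPM in adult luminal cells, the opposite order to Slc20a1. The zinc and manganese importer Slc39a8, which overlaps 4933401H06Rik, had 14.1 CPM in luminal-marked and 27.5 CPM in basal-marked cells. Its log2 ratio of basal-marked over adult basal cells turned from 4.45 to -0.31 (interval -1.83 to 0.92, with 6 pregnancy reads left) without the cells marked as other types.

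Slc3a2, the shared heavy chain that partners light chains of the Slc7 family, was found in 28 of 39 adult luminal, 56 of 85 adult basal, 34 of 41 luminal-marked and 43 of 49 basal-marked cells. Its light chains were found in fewer cells. The cystine light chain Slc7a11 was found in 16 adult basal cells, 12 of them with Slc3a2, and in 3 adult luminal cells. The leucine light chain Slc7a5 was found in 13 adult basal and 9 luminal-marked cells. The light chain Slc7a7, whose gene overlaps Oxa1l, was found in 13 luminal-marked cells, 11 of them with Slc3a2, and in 1 adult luminal cell.

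Levels per kilobase of gene (RPKM) can be set against each other between genes. The ADP and ATP exchanger Slc25a5 was at 1298 RPKM in adult luminal, 932 in adult basal and 696 in all pregnancy cells, the highest mitochondrial carrier in each. Among amino acid carriers Slc38a2 was highest, at 313, 452 and 460 RPKM. The highest sugar carrier was Slc50a1, at 185, 45.2 and 70.9 RPKM, and the highest phosphate carrier Slc20a1, at 42.1, 23.6 and 114 RPKM. Slc12a2 led the class of bicarbonate and chloride (98.7, 23.4 and 37.3 RPKM) and Slc39a1 that of metals (93.1, 88.5 and 38.6 RPKM). Slc35b1 led the class of nucleotide sugars, sugar phosphates and Slc35 relatives (111, 70.1 and 72.6 RPKM). The vesicle carrier of monoamines Slc18a2 led its class at 19.5, 28.0 and 24.6 RPKM, and Slc66a2 and Slc41a1 led theirs. The leading organic anion carrier changed from Slc10a1, the bile acid carrier, in adult luminal cells (15.5 RPKM) to Slco2a1 in adult basal (67.0) and Slc27a1 in pregnancy cells (13.7). Few cells bore on the value of Slc10a1. Among the 8 adult luminal cells called progenitor-marked below, 2 held 558 reads of it and the median cell was at 0. Nucleoside carriers were led by Slc28a3 in adult luminal and pregnancy cells (56.3 and 66.8 RPKM) and by Slc29a1 in adult basal cells (40.0).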

How the data were processed

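For each cell the deposited file gives unnormalised counts, as read pairs assigned to Entrez gene IDs, with gene lengths. The authors mapped reads to mm10 with Subread 1.4.6 and counted them with featureCounts, per the submitters' processing notes; there are no molecular identifiers, so intervals cover counting error only. Libraries were made with Nextera XT. Symbols were taken from the GRCm38.p6 gene table for 25275 of 27179 IDs. Following the study, 15 mitochondrial genes (9.54% of reads) and 123 genes of ribosomal proteins (1.71%) were left out, and so were the 1904 IDs that matched no symbol (1.20%). Retained cells had 100000 reads and 1500 genes (adult luminal) or 50000 reads and 1000 genes (others). Assigned reads per cell ranged from 50 to 1402390 over all 278 cells.

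Counts of retained cells were summed and divided by the total to give CPM, and ratios of genes with 1 CPM in 3 or more cells were compared. Intervals are at the 95% level, Poisson for sums, Clopper-Pearson for shares, and the exact conditional interval for ratios. A sum of 0 was replaced by 3 counts for the whole group, and such a ratio is a bound. Where both sums were 3 or fewer no ratio was given. Genes were named by rule when they were among the 8 highest or 8 lowest ratios of 2-fold or more in a comparison. The 8 were taken among members with 50 or more CPM, and reads in 25% or more of the cells, in the higher group. Genes with the highest RPKM of a class and those in the list from mammary physiology were named too. Other genes are described beside these by family or class and were not chosen by a rule. Members and lists were chosen with earlier results of these data known. Python 3.11.15, numpy 2.4.6, scipy 1.17.1, pandas 2.3.3 and edgeR 4.0.16 (TMM factors only) were used. On simulated counts for the 15306 genes, adult basal over adult luminal, all of the 200 changed genes had the right direction and 95.3% of the unchanged genes' intervals held the true ratio. All simulated cells of a group shared the same expected levels, which is what the intervals assume. The simulation therefore checks the calculation only and says nothing about variation between real cells.

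Of the members, 23 overlap another gene. No doublet caller was run. The table of all cells repeats these counts and was left aside.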

Additional observations from a re-analysis of the deposited data

How the results depend on the processing

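With 4-fold in place of 2-fold, the counts of members higher and lower were 16 and 39 (adult basal over adult luminal), 15 and 19 (luminal-marked over adult luminal), 30 and 7 (basal-marked over adult basal) and 12 and 15 (luminal-marked over basal-marked). For luminal-marked over adult luminal, TMM gave 49 higher and 26 lower, leaving out milk genes gave 42 and 29, and title numbers above 55 gave 76 lower. For basal-marked over adult basal, the stricter marker gap gave 40 lower. For luminal-marked over basal-marked, lower counts were 27 with TMM and 28 without milk genes. Median solute carriers per cell without thinning were 52 in adult luminal and 31 in adult basal cells, and with 5 or more reads 21 in adult luminal, 13 in adult basal and 20.5 in pregnancy cells. With 40 cells in place of 20 the rule gave 100 genes. Under the other settings 80 values stayed near the reported one (a count within 1.5 times), 13 counts were lower, 4 were higher and 5 medians moved. Single genes did turn: of those 2-fold or more apart, the direction was the opposite for 10 of 81 with the stricter marker gap (basal-marked over adult basal) and for 9 of 80 with title numbers up to 55 (luminal-marked over basal-marked). Leaving out the cells marked as other types and adult luminal cell 35 was chosen after seeing the data. No paired analysis was possible because title numbers only name cells and no test was run. Shares of all genes were counted only at the main setting, so counts of members under other settings have no background beside them. The cause of these shifts was not tested.

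Precision was limited by the design: the labels tie no cell to an animal or a capture run, and 1 cell often held much of a gene's reads.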

Other observations

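Adult luminal cells could be divided by 8 mature luminal and 8 luminal progenitor markers into 26 mature-marked and 8 progenitor-marked cells. Of 152 members with a ratio, 64 were 2-fold or more higher in mature-marked cells, where 39% of all genes were, and 41 lower, where 22.8% were. Slc7a2 had 672 CPM in mature-marked cells, where it was found in 23 of 26, and 18.5 CPM in progenitor-marked cells, where it was found in 4 of 8. Slc5a6 was found in 18 of 26 mature-marked cells and had no read in the 8 progenitor-marked ones. Slc12a2 (774 against 167 CPM) and Slc25a17 (807 against 207 CPM) were also higher in mature-marked cells.

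Higher in progenitor-marked cells were Slc28a3 (791 against 125 CPM, found in 3 of 8 and 7 of 26 cells), the zinc carrier Slc30a4 (274 against 77.9 CPM), Slc20a1 (379 against 129 CPM), Slc9a3r1 (218 against 55.6 CPM, found in 8 of 8 and 13 of 26 cells) and the monoamine carrier Slc18a2 (308 against 27.6 CPM). Without the cells marked as other types, which were 3 of the 8 progenitor-marked cells, the log2 ratio of mature-marked over progenitor-marked cells was -2.40 for Slc28a3, -1.68 for Slc20a1, -2.67 for Slc30a4 and -2.44 for Slc9a3r1, while that of Slc18a2 moved from -3.48 to -1.03. Of the 105 members 2-fold or more apart, 10 had the opposite direction without those cells and 4 gave no value. For each of 3 genes a single cell marked as another type held much of the progenitor-marked reads, with 53.3% of those of Slc28a3, 59.1% of those of Slc20a1 and 72.3% of those of Slc18a2, and fibroblast markers summed to 4967 CPM in progenitor-marked and 1256 CPM in mature-marked cells, whose part was not tested.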
